A study of Homo sapiens with 8 samples.

Results

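Complement is a cascade of plasma and cell-surface proteins that tags targets for uptake by phagocytes and can lyse them. The 10 genes described here are complement components and regulators, and they were chosen by symbol from the 35369 genes with a symbol in the expression table, with earlier results of these data known. Among those results C3 already stood as 1 of the largest increases in knockdown. The differences between knockdown and control are therefore given as a description of the members, with no p-value, and the number called there is printed once and not read as a result. All 10 genes were present in the table and all 10 passed the filter on low values, which 13030 genes passed, with every member at or above the minimum of 1 ppm in all 8 libraries.

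The cells were MOLM13, an established human acute myeloid leukemia line, labelled as AML cells and sequenced from polyadenylated RNA. There were 2 libraries in each of 4 groups: cells with the genotype label IGF2BP2 knockdown, cells labelled IGF2BP2 rescue, cells labelled IGF2PB2-mut rescue (mutant rescue, with the gene so spelled), and control cells labelled WT. The titles mark the knockdown as a short hairpin. IGF2BP2 encodes a protein that binds messenger RNA carrying N6-methyladenosine. The labels give 1 protocol of viral infection for all groups, with puromycin where selection was needed, and do not describe the hairpin, the mutation, or any vector in control cells. Nothing states that the replicates came from separate cultures, and the p-values therefore cover only library-to-library spread, possibly technical. Values are log2 values normalized by the authors across the 8 libraries. They are compared within a gene and not between genes, since no correction for transcript length is stated, and read depth is unknown.

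The transcript of IGF2BP2 itself had log2 values of 10.24 and 10.25 in knockdown, 11.36 and 11.13 in rescue, 11.03 and 10.68 in mutant rescue, and 10.94 and 10.89 in control. It fell by 0.67 in knockdown against control (adjusted p = 0.0147) and rose over knockdown by 1.002 in rescue (adjusted p = 0.00324) and 0.61 in mutant rescue (adjusted p = 0.0298). The defining markers of monocytes were present: all 10 on the list passed the filter and none was at 0. Hepatocytes are the main source of plasma complement, and of their 4 markers none passed the filter and 1 was at 0 in every library. The summed hepatocyte level was at most 0.15 ppm of a library's linear total, and T cell, B cell and erythroid lists likewise had no marker past the filter. Of 4 platelet markers 1 passed, GP9, at 1.87 to 2.38 ppm. Replicates differed across genes with an SD on the log2 scale of 0.148 in knockdown, 0.233 in rescue, 0.303 in mutant rescue and 0.212 in control.

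Complement is started by antibody through C1q, by lectins, or by the spontaneous turnover of C3, which the proteases factor B and factor D amplify. All routes cut C3, whose larger fragment binds to surfaces and whose smaller fragment, C3a, is read by the receptor C3AR1. Host cells guard themselves with CD46 and CD55, which act on the C3-cutting enzymes or their products, and with CD59, which blocks the terminal pore. Myeloid cells make several components themselves, and macrophages carry receptors for bound C3 fragments, among them VSIG4 and CR1.

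Among the soluble components, C3 varied most. C3 (chromosome 19, 6677704 to 6730562, minus strand, GRCh38) had log2 values of 10.40 and 10.56 in knockdown, 9.82 and 9.74 in rescue, 10.77 and 11.54 in mutant rescue, and 8.61 and 8.22 in control. The libraries of no 2 groups overlapped: mutant rescue was highest, then knockdown, then rescue, and control was lowest. The log2 level was 2.06 higher in knockdown than in control (SE 0.23), a difference of 4.18-fold on the scale of these values. In the authors' deposited table the log2 change was 2.62. The gap between the mutant rescue libraries was wider than in any other group (SD 0.54, against 0.05 to 0.27).

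Rescue and mutant rescue differed in C3, and the difference itself shares no library with knockdown against control. Its SE and adjusted p are not independent of that contrast, since the model takes the spread from all 8 libraries. C3 was 2.60-fold lower in rescue than in mutant rescue, a log2 difference of -1.38 (SE 0.23, limma adjusted p = 0.0100), and only 9 of the 13030 genes tested had a lower value. The log2 difference was -0.996 without mutant rescue replicate 2 and -1.76 without mutant rescue replicate 1. The call was lost without rescue replicate 2 (adjusted p = 0.0714) and when the rescue arms were fitted alone (adjusted p = 0.0639). The authors' deposited table gives a log2 change of -1.76 (adjusted p = 1.21e-07).

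Both rescue arms were also compared with knockdown, and these comparisons share the knockdown libraries with the contrast known when the genes were chosen. C3 lay below knockdown in rescue and above it in mutant rescue. The log2 difference was -0.70 in rescue (SE 0.23, adjusted p = 0.133) and 0.68 in mutant rescue (SE 0.23, adjusted p = 0.0838), and neither passed the test. Rescue passed in a fit of only rescue and knockdown (adjusted p = 0.00938), without mutant rescue replicate 1 (0.0229) and without mutant rescue replicate 2 (0.0231). Mutant rescue passed without its replicate 1, with a log2 difference of 1.06 (adjusted p = 0.00746), and had 0.29 without its replicate 2. Both passed in the authors' deposited table, with log2 changes of -0.87 for rescue (adjusted p = 5.68e-07) and 0.86 for mutant rescue (adjusted p = 0.0204).

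CFD encodes factor D, the protease that cuts factor B, and CFP encodes properdin, which stabilizes the alternative pathway's C3-cutting enzyme. CFD (chromosome 19, 859643 to 863630, plus strand) had log2 values of 11.59 and 11.56 in knockdown, 11.86 and 11.45 in rescue, 11.80 and 12.10 in mutant rescue, and 11.41 and 11.58 in control. Mutant rescue stood above knockdown and control in both libraries and overlapped rescue. Its log2 difference of 0.37 from knockdown (SE 0.15, 95% interval 0.03 to 0.72) did not pass the test (adjusted p = 0.128), nor did that of rescue from mutant rescue (-0.29, 95% interval -0.64 to 0.06). CFP (chromosome X, 47623172 to 47630305, minus strand) ranged only from 6.38 to 6.92 over the 8 libraries, with overlap between all groups except knockdown against rescue and against control. CFP shares exonic sequence with a noncoding transcript on the same strand, and reads of the 2 cannot be parted here. Its log2 difference between rescue and mutant rescue was -0.07 (95% interval -0.42 to 0.27).

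**Figure D1:**
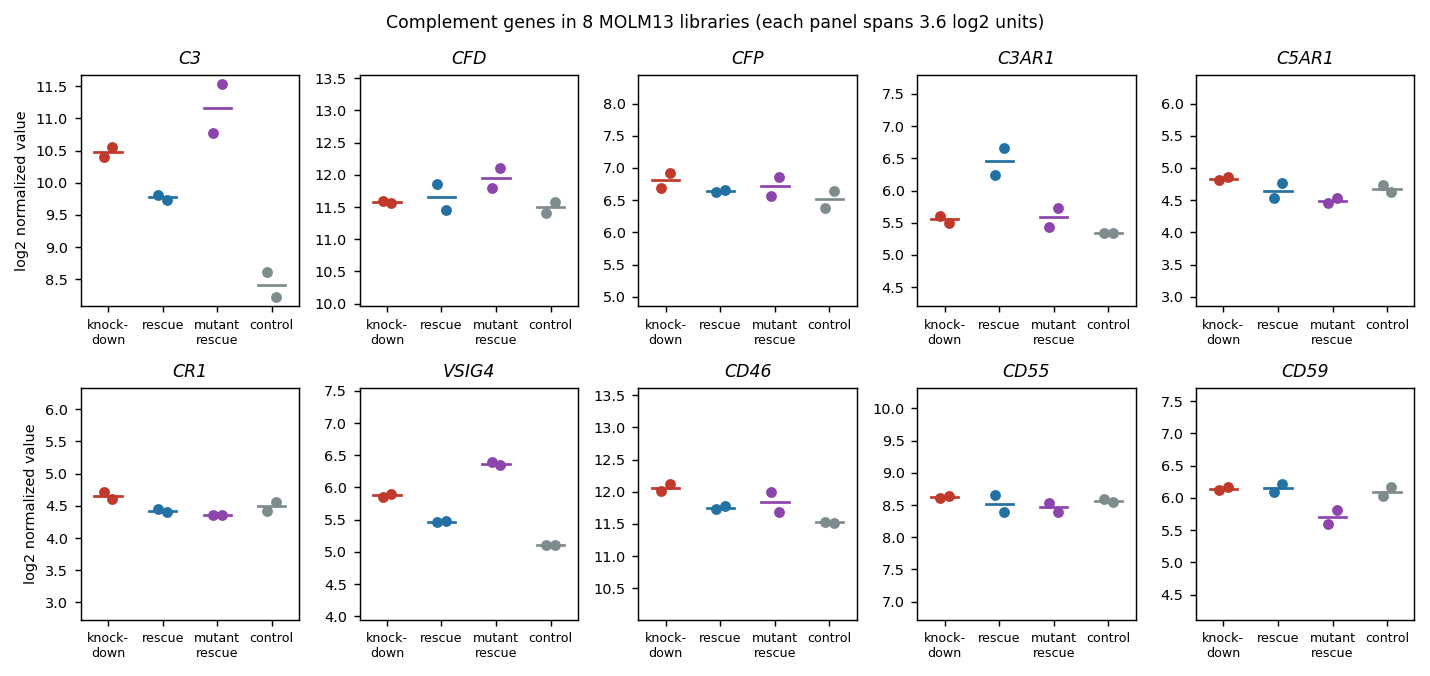
Log2 normalized values of the 10 complement genes in each library (points; lines are the means of 2) by group, with each panel spanning the same number of log2 units. C3 and VSIG4 share an order of groups, with mutant rescue highest and control lowest, C3AR1 is highest in rescue, and CD59 is lowest in mutant rescue.

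The receptors fell into separate patterns. VSIG4, which encodes a macrophage receptor for C3b and iC3b, followed the same order of groups as C3. VSIG4 (chromosome X, 66021738 to 66040125, minus strand) had log2 values of 5.85 and 5.90 in knockdown, 5.46 and 5.48 in rescue, 6.39 and 6.35 in mutant rescue, and 5.11 and 5.11 in control. No groups overlapped, and the replicates lay within 0.05 of each other in every group. The log2 level was 0.77 higher in knockdown than in control (SE 0.09). The authors' deposited log2 change for this pair was 2.86, larger than the difference of the deposited library values.

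VSIG4 was 1.87-fold lower in rescue than in mutant rescue, a log2 difference of -0.90 (SE 0.09, adjusted p = 0.000917). This call held in all 13 alternatives tried, with adjusted p between 0.000969 and 0.0315. In the authors' deposited table the log2 change was -2.15 (adjusted p = 0.000186). Against knockdown VSIG4 rose by 0.49 in mutant rescue (SE 0.09, adjusted p = 0.0184) and fell by 0.41 in rescue (SE 0.09, adjusted p = 0.0420). The call in mutant rescue was lost without knockdown replicate 1 (adjusted p = 0.136), without knockdown replicate 2 (0.131) and when those groups were fitted alone (0.0722). That in rescue was lost in 9 of 13 alternatives, including the replicate block (adjusted p = 0.0546), centring on library medians (0.0523), no filter (0.0507) and the fits without either library of control (0.0739 and 0.0735), of knockdown (0.232 and 0.329) or of rescue (0.184 and 0.155).

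C3AR1, the receptor for C3a, had a different order. C3AR1 (chromosome 12, 8058302 to 8066471, minus strand) had log2 values of 5.61 and 5.50 in knockdown, 6.24 and 6.67 in rescue, 5.44 and 5.73 in mutant rescue, and 5.33 and 5.34 in control. Both rescue libraries stood above all 6 others, while knockdown and mutant rescue overlapped and control was lowest. C3AR1 was 1.83-fold higher in rescue than in mutant rescue, a log2 difference of 0.87 (SE 0.16, adjusted p = 0.0136), and rose by 0.90 over knockdown (SE 0.16, adjusted p = 0.0160). These log2 changes in the authors' deposited table were 1.96 (adjusted p = 0.00347) and 2.08 (adjusted p = 9.44e-05). Without rescue replicate 2 the differences were 0.65 and 0.68 and neither passed (adjusted p = 0.0777 and 0.0759). The second call was also lost without knockdown replicate 1 (adjusted p = 0.0931) and knockdown replicate 2 (0.155), and the first in a fit of only the rescue arms (0.0973). Mutant rescue differed from knockdown by 0.03 (95% interval -0.33 to 0.39).

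C5AR1 encodes the main receptor for C5a, a strong attractant of phagocytes, and CR1 a receptor and regulator that binds C3b and C4b. C5AR1 (chromosome 19, 47290023 to 47322066, plus strand) had log2 values of 4.82 and 4.85 in knockdown, 4.54 and 4.76 in rescue, 4.45 and 4.54 in mutant rescue, and 4.73 and 4.62 in control. Knockdown was highest, without overlap with any group, and mutant rescue overlapped only rescue. CR1 (chromosome 1, 207496147 to 207641765, plus strand) had log2 values of 4.71 and 4.60 in knockdown, 4.45 and 4.40 in rescue, 4.35 and 4.35 in mutant rescue, and 4.42 and 4.56 in control. Knockdown was again highest, and mutant rescue was below every other library.

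Both genes fell in mutant rescue against knockdown, C5AR1 by 0.34 (SE 0.09, adjusted p = 0.0495) and CR1 by 0.31 (SE 0.08, adjusted p = 0.0421). These calls stood at the edge of the threshold and were lost in 9 of 13 alternatives for C5AR1 and 10 of 13 for CR1. For C5AR1 these included leaving out either library of control, knockdown or mutant rescue (adjusted p between 0.0669 and 0.252). For CR1 they included leaving out control replicate 1 or either library of knockdown, rescue or mutant rescue (adjusted p between 0.0502 and 0.214). Neither passed in the authors' deposited table (log2 changes -1.68 and -1.58, adjusted p = 0.176 for C5AR1 and 0.219 for CR1). Both genes lay near the filter's minimum of 1 ppm, at 1.41 to 2.13 ppm for C5AR1 and 1.27 to 1.94 ppm for CR1. At such levels differences of these log2 values understate the change. Between rescue and mutant rescue the log2 difference was 0.15 for C5AR1 (95% interval -0.06 to 0.36) and 0.07 for CR1 (95% interval -0.10 to 0.25). Some exonic sequence of CR1 also lies in an antisense gene, and CR1 has a closely related neighbour, CR1L, so its values are uncertain.

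Of the surface regulators, CD46 was the one whose log2 level differed most between knockdown and control, and CD59 between the rescue arms. CD46, a cofactor for cutting C3b and C4b, lies on chromosome 1 (207752057 to 207795513, plus strand), as do CR1 and CD55, in the cluster of complement regulators. CD46 had log2 values of 12.01 and 12.11 in knockdown, 11.72 and 11.78 in rescue, 11.99 and 11.69 in mutant rescue, and 11.54 and 11.51 in control. Knockdown stood above every other library and control below every other library, while the mutant rescue libraries lay on either side of rescue. The log2 level was 0.54 higher in knockdown than in control (SE 0.11), or 1.45-fold. Its difference of -0.31 between rescue and knockdown (SE 0.11) did not pass here (adjusted p = 0.177), passed in a fit of only those groups (0.0419) and passed in the authors' deposited table (log2 change -0.37, adjusted p = 0.0231). Mutant rescue differed from knockdown by -0.23 (adjusted p = 0.196), or by -0.38 without mutant rescue replicate 1, where it passed (0.0352).

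CD55, which speeds the decay of the C3-cutting enzymes, varied least of the 10 genes. CD55 (chromosome 1, 207321376 to 207386804, plus strand) lay between 8.39 and 8.65 in all 8 libraries, and its group means spanned 0.16. The log2 difference was 0.05 (95% interval -0.23 to 0.34) between rescue and mutant rescue, -0.10 (95% interval -0.39 to 0.18) between rescue and knockdown, and -0.16 (95% interval -0.44 to 0.13) between mutant rescue and knockdown.

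CD59 (chromosome 11, 33703010 to 33736491, minus strand) had log2 values of 6.12 and 6.17 in knockdown, 6.09 and 6.22 in rescue, 5.60 and 5.81 in mutant rescue, and 6.03 and 6.17 in control. Mutant rescue was below every other library, and the other groups overlapped each other. CD59 fell by 0.44 in mutant rescue against knockdown (SE 0.12, adjusted p = 0.0461), and was 0.45 higher in rescue than in mutant rescue (SE 0.12, adjusted p = 0.0444). The first call was lost without any 1 of the 8 libraries (adjusted p between 0.0555 and 0.253), and the second without any 1 except mutant rescue replicate 2 (adjusted p between 0.0654 and 0.207 where lost). Neither passed in the authors' deposited table (log2 changes -1.25 and 1.24, adjusted p = 0.154 and 0.165). Exonic sequence of CD59 is shared with a second protein-coding annotation on the same strand.

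**Figure D2:**
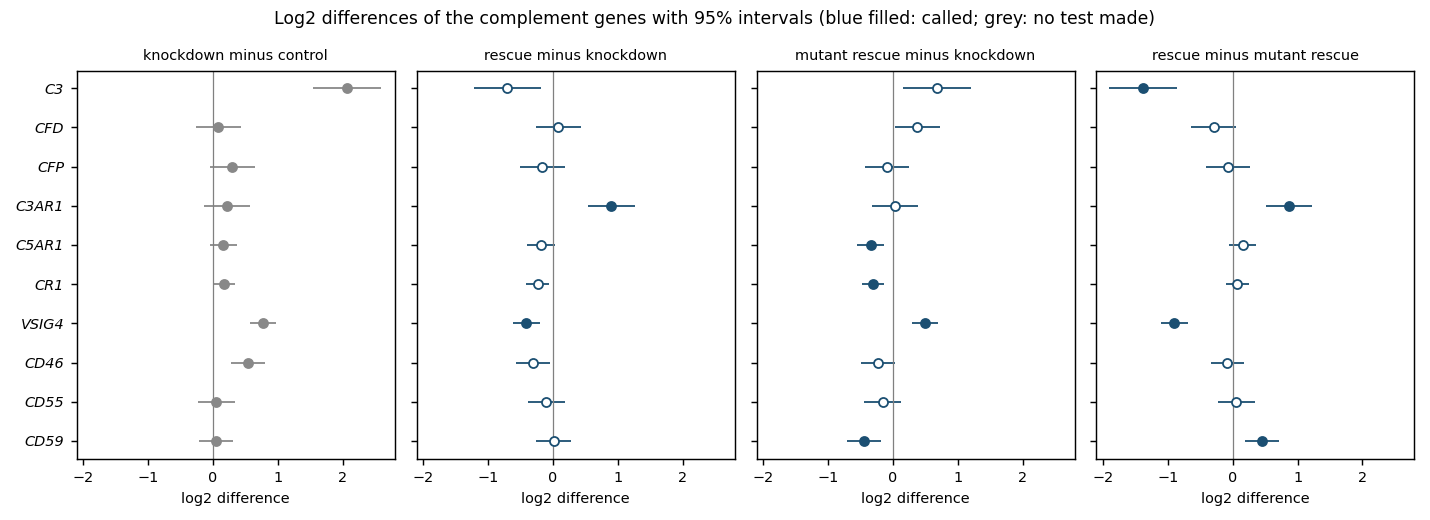
Log2 difference of each complement gene (points) with its 95% interval (lines) in 4 comparisons, where blue filled points were called and the grey panel has no test. C3 and VSIG4 lie below 0 in rescue minus mutant rescue, while C3AR1 and CD59 lie above 0.

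Counted over the members, rescue against mutant rescue had 2 of 10 higher (C3AR1 and CD59) and 2 lower (C3 and VSIG4), beside 5.90% of all genes tested called higher and 4.61% lower. The median log2 difference over the members was -0.01, and over all genes tested -0.02. Mutant rescue against knockdown had 1 higher and 3 lower, beside 5.58% and 5.73% of all genes, with a median over the members of -0.12, against 0.05 over all genes. Rescue against knockdown had 1 higher and 1 lower, beside 3.22% and 1.02%, with medians of -0.17 and 0.00. In knockdown against control 3 of 10 were called higher (C3, VSIG4 and CD46), beside 5.35% higher and 7.44% lower over all genes, and since this contrast was known when the members were chosen nothing is read from that count. Its medians were 0.19 over the members and 0.01 over all genes. The counts of called members moved with single libraries. In each fit named next, fewer of all the genes tested were called as well, so the lower counts are not particular to the members. In rescue against knockdown 0 were called without knockdown replicate 1, knockdown replicate 2 and rescue replicate 2 in turn, where 3 had an unadjusted p under 0.05 in each, and 1 without either control or without rescue replicate 1. In mutant rescue against knockdown 0 were called without either knockdown library, where 4 and 5 had an unadjusted p under 0.05, 1 without control replicate 1 or mutant rescue replicate 2, and 2 without control replicate 2 or either rescue library. In rescue against mutant rescue 1 was called without rescue replicate 2.

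The order of the groups in C3 and VSIG4 was also that of the summed monocyte markers. This list of 10 genes summed to 11481 and 11001 ppm of the linear total in knockdown, 7876 and 9125 ppm in rescue, 16380 and 24069 ppm in mutant rescue, and 2872 and 3449 ppm in control. The single highest library, mutant rescue replicate 2, was highest for both C3 and the list, while VSIG4 was highest in mutant rescue replicate 1. LYZ alone made up most of the list's sum, with 15410 and 23184 ppm in mutant rescue and 2363 and 2889 ppm in control. The order of the summed list is therefore mainly that of LYZ. Of the 10 markers, 5 were called higher and 0 lower in knockdown against control, beside 5.35% and 7.44% of all genes tested. At an unadjusted limma p under 0.05 these were 6 higher and 0 lower. The list was chosen with earlier results of these data known, so its counts are a description. In rescue against mutant rescue 0 were called higher and 3 lower (1 and 4 unadjusted), beside 5.90% and 4.61% of all genes. That last count of 3 was between 1 and 4 when 1 library was left out, and 1 without either library of knockdown or of rescue or without mutant rescue replicate 2. The 5 granule markers of promyelocytes, the myeloid precursors, had another order, and summed to 4625 and 4557 ppm in knockdown, 6592 and 5502 ppm in rescue, 5397 and 5603 ppm in mutant rescue, and 6635 and 7602 ppm in control. Of these, 3 were called lower in knockdown than in control, beside 7.44% of all genes tested, and this count is likewise a description. Their log2 differences were -0.78 for PRTN3, -0.82 for CTSG and -0.56 for ELANE. The list's median was -0.56, against 0.01 over all genes. CD14, a classical monocyte marker, had a log2 difference of -0.04 between knockdown and control and of -0.36 between rescue and mutant rescue (adjusted p = 0.0382). The part of either list in the C3 and VSIG4 differences was not tested, and in bulk RNA more cells of a type and more RNA per cell cannot be told apart.

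C3AR1 was highest in rescue, where interferon-stimulated genes were also highest. The 10 genes of that list summed to 159 and 161 ppm in knockdown, 6422 and 7450 ppm in rescue, 1566 and 1619 ppm in mutant rescue, and 102 and 103 ppm in control. The list was chosen because other reports of these data gave it as high in both rescue arms, so its counts are a description and not a result. All 10 were called higher in rescue than in mutant rescue, beside 5.90% of all genes tested. All 10 were also called higher than in knockdown in rescue, beside 3.22% of all genes, and in mutant rescue, beside 5.58%. In mutant rescue these genes were also above knockdown in both libraries, while C3AR1 overlapped knockdown. Their part in the C3AR1 difference was not tested.

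**Figure D3:**
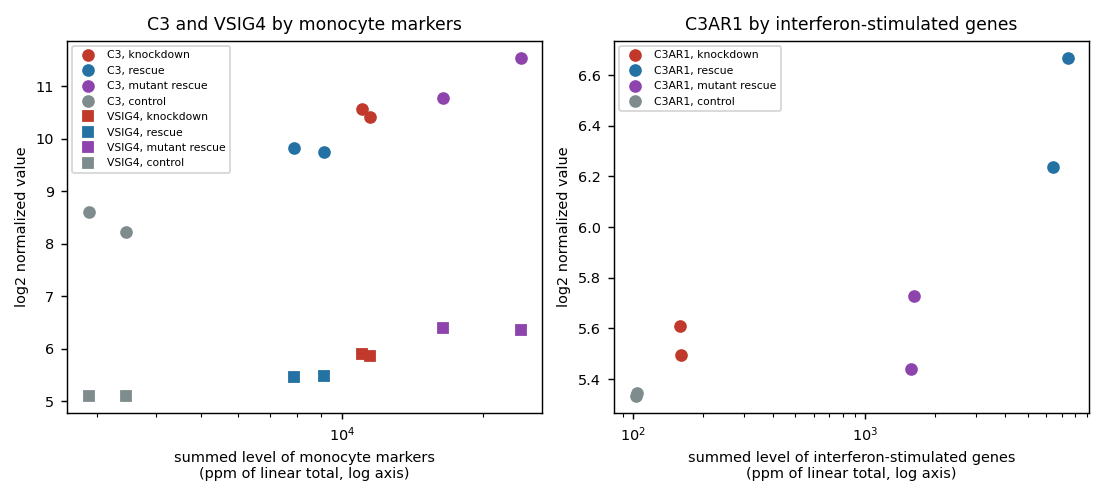
Log2 normalized values of C3 and VSIG4 against the summed level of 10 monocyte markers (left), and of C3AR1 against that of 10 interferon-stimulated genes (right), 1 point a library, with a log axis of ppm. C3 and VSIG4 are lowest in control and highest in mutant rescue along the monocyte axis, and C3AR1 stands apart only in rescue.

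C3 and VSIG4 had the largest ranges of group means among the members, 2.74 and 1.26 on the scale of these log2 values. That scale understates changes of low genes, so the 2 ranges are not compared in size. In the authors' deposited table the log2 change from control to mutant rescue was 3.56 for C3 and 3.94 for VSIG4. Over the 8 libraries their Pearson correlation was 0.94, which describes 4 group levels more than 8 independent points. By this measure VSIG4 ranked 110th among the genes tested for likeness to C3, so the pair is not set apart. The genes most like C3 were CRELD1 (r = 0.99), WIPF2 (0.99) and LMBR1L (0.98). Those most like VSIG4 were LGALS3, which encodes the lectin galectin-3, QPCT and the sialidase gene NEU1 (r = 0.99 each). The correlation of C3 with its receptor gene C3AR1 was 0.13, and with CD59 -0.52.

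Promoter sequences were examined for the members that differed between the rescue arms, since C3AR1 was highest with the interferon-stimulated genes and VSIG4 was not. RefSeq windows on GRCh38.p14, from 250 bases before to 50 bases after a start, were at hand for 9 of the 10 members (14 windows), all but C3. The 3 motifs searched on both strands were the interferon-stimulated response element core (GAAA, any 2 bases, GAAA), the gamma-activated site TTCNNNGAA, and the PU.1 core GAGGAAGT. They occur in 3.57%, 7.66% and 2.59% of all 35116 windows. The first and the last of the 3 were in no window of a member, and the gamma-activated site was in 2 overlapping windows of CD59 only. The 250 bases before the start of C3AR1 (chr12:8066360-8066609, minus strand) and of VSIG4 (chrX:66040081-66040330, minus strand) are printed 5′ to 3′, with capitals for the 50 bases next to the start.
C3AR1: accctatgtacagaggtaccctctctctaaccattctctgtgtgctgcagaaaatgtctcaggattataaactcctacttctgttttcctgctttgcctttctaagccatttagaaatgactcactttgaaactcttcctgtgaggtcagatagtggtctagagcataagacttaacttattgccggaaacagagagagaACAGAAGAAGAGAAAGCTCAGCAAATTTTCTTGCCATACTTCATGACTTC
VSIG4: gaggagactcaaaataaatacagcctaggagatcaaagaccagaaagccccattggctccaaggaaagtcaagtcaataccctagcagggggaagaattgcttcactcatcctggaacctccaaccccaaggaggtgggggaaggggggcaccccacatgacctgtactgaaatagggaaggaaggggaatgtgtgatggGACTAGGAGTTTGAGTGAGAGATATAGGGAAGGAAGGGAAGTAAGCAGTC

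IGF2BP proteins prefer RNA with the pentamer TGGAC (written as DNA), so it was counted in the longest protein-coding transcript of each member (GENCODE v29). C3 had 12 in 5263 bases, or 2.28 per kb, the highest density of the 10, followed by C5AR1 with 2.16 per kb. CD55 had 0 in 2892 bases and CR1 0.465 per kb. VSIG4 had 1.37 and C3AR1 0.958 per kb. The median over 11727 tested genes was 1.12 per kb, with quartiles at 0.70 and 1.68, so C3 and C5AR1 lay above the upper quartile, as did CFP at 1.75. These are counts of letters and not binding sites.

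The rest of the pathway was read from a list of 48 other complement genes, also written with earlier results known, of which 21 passed the filter. Knockdown against control was known when this list was written, so its values are a description: 3 of 21 were called higher, C1QA, ITGB2 and ITGAX, and 1 lower, C1QBP, beside 5.35% and 7.44% of all genes tested. C1QA, a chain of the C1q complex, had log2 values of 6.25 and 6.36 in knockdown and 5.31 and 5.21 in control, a log2 difference of 1.04 (SE 0.12). ITGAX and ITGB2 encode the 2 chains of complement receptor 4, with log2 differences of 1.04 (SE 0.15) and 0.97 (SE 0.13). C1QBP, a mitochondrial protein first found as a C1q binder and named after its value was seen, had a log2 difference of -0.61 (SE 0.12). ITGAM, the other partner of ITGB2, had 6.57 and 5.62 in knockdown, a gap wider than any difference between its group means, and is named after its values were seen.

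In rescue against knockdown 3 of 21 were called higher and 2 lower, beside 3.22% and 1.02% of all genes tested. SERPING1, the inhibitor of the C1 proteases, rose by 0.63 (SE 0.05, adjusted p = 0.000156), with log2 values of 3.94 and 3.90 in rescue and 3.29 and 3.29 in knockdown. CFB, the factor B gene of the alternative pathway, rose by 0.57 (SE 0.07, adjusted p = 0.00243). Both lay at the edge of the filter. SERPING1 reached 1 ppm only in the rescue libraries (1.04 and 1.02 ppm, against 0.631 to 0.722 ppm in the other 6). It therefore entered the test only through the group in which it was high, and the 3 called higher include it. CFB had 1.25 and 1.42 ppm in rescue and 0.846 to 1.00 ppm in the other 6, with knockdown replicate 2 the only other library at the minimum. With no filter the adjusted p was 0.00198 for SERPING1 and 0.0128 for CFB. C1QA and ITGAX, named after their values were seen, fell by 0.60 (adjusted p = 0.0278) and 0.75 (adjusted p = 0.0264). C1QA was not called without any 1 library of control, knockdown or rescue (adjusted p between 0.0547 and 0.250), nor ITGAX without any 1 of knockdown or rescue (0.0891 to 0.249). The number called was 2 without either knockdown library or rescue replicate 2, and 3 without rescue replicate 1. The interferon-stimulated genes rose in the same comparison, and their part was not tested.

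In mutant rescue against knockdown 0 of 21 were higher (1 at an unadjusted p under 0.05, by limma) and 3 lower, beside 5.58% and 5.73% of all genes tested. C4BPB, a chain of the C4b-binding protein, fell by 0.64 (SE 0.11, adjusted p = 0.0163), the C5a receptor gene C5AR2 by 0.70 (SE 0.14, adjusted p = 0.0266) and the lectin pathway protease gene MASP1 by 0.46 (SE 0.12, adjusted p = 0.0431). All 3 calls were lost without knockdown replicate 1 (adjusted p between 0.100 and 0.197) and without knockdown replicate 2 (0.127 to 0.220). That of C5AR2 was also lost without mutant rescue replicate 2 (0.0685), and that of MASP1 without either control (0.0584 and 0.0578) or either mutant rescue library (0.0687 and 0.0859).

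In rescue against mutant rescue 6 of 21 were called higher and 3 lower, beside 5.90% and 4.61% of all genes tested. The 6 include SERPING1, which passed the filter only through rescue. SERPING1 was 0.53 higher (SE 0.05, adjusted p = 0.000880) and CFB 0.51 higher (SE 0.07, adjusted p = 0.00474) with the same limit, and with no filter the adjusted p was 0.00637 for SERPING1 and 0.0205 for CFB. C1QA was 0.68 lower (SE 0.12, adjusted p = 0.0117), a call lost without rescue replicate 2 (adjusted p = 0.0875). Also called were MASP1, C4BPB and C5AR2, higher by 0.45 to 0.56, and CD93 and ITGB2, lower by 0.85 and 0.52, named after their values were seen. The number called was 2 without rescue replicate 2, 3 without mutant rescue replicate 2 and 4 without either knockdown library. C5AR2, C4BPB and ITGB2 each lost the call in 9 of the 13 alternatives, MASP1 in 5 and CD93 in 4. None of these genes was called in the fit of only the rescue arms (adjusted p between 0.0514 and 0.159). With no filter MASP1 and CD93 kept the call (adjusted p = 0.0491 and 0.0337). There C5AR2, C4BPB and ITGB2 lost it (0.0808, 0.08035 and 0.0915).

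**Figure D4:**
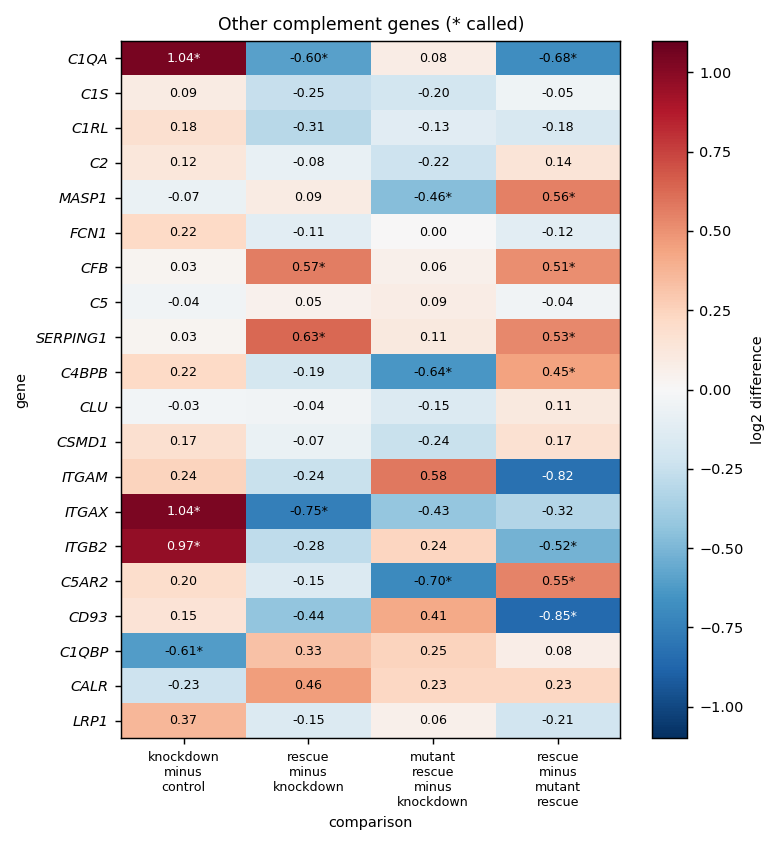
Log2 differences of other complement genes tested (rows) in 4 comparisons (columns), with an asterisk where a gene was called. CFB and SERPING1 are higher in rescue in both of its comparisons, but both lie at the edge of the filter, which SERPING1 passed only through rescue. C1QA is higher in knockdown than in control and lower in rescue than in knockdown and mutant rescue.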

How the data were processed

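Messenger RNA of 8 MOLM13 libraries in 4 groups of 2 was analysed from 1 table, with groups and replicate numbers taken from the sample titles. Per the file headers, the authors made it with the getDiffExpression.pl program of HOMER, and Trim Galore and kallisto are listed beside HOMER and the build GRCh38 in the submitters' processing notes, which state no role or order. The library columns are log2 values that the authors normalized, and the deposited log2 fold changes and p-values come from a model not given in the sources used here, with the sign turned where needed so that each matches the direction printed. Their low genes lie close together, so a difference of these log2 values understates the change of low genes. 1 entry without a symbol was left out, and counts were not used here, so depth is unknown.

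The planned design foresaw several units. As the values were log2, limma 3.58.1 (R 4.3.3) was run on them with no pseudocount, on the 13030 genes that reached 1 ppm of the summed linear values in 2 or more libraries. All 8 libraries entered 1 model of group means with a mean trend, and a gene was called where its p, adjusted over all 13030 by Benjamini-Hochberg, was under 0.05. The fit was tested on simulated data. The members and gene lists were chosen with earlier results of these data known. Named were all members, up to 3 called other complement genes per comparison with the smallest adjusted p, the 3 genes best correlated with each of the 2 members of widest range, and IGF2BP2. The counts of other complement genes include 1 gene that is not reported here. The alternatives were no filter, only the groups compared, a replicate block, centring on library medians, a constant prior variance, and leaving out each library. The replicate block rests on shared numbers only, since no label ties the same number across groups.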

Additional observations from a re-analysis of the deposited data

How the results depend on the processing

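Depth is unknown and each group has 2 libraries, so calls near the threshold moved with the settings. Where leaving out 1 library leaves a group with 1, that library is assumed to vary like the other groups. In rescue against knockdown, 2 of 10 complement members were called, and 1 with no filter, 1 with the replicate block, 1 with centring and 4 in the fit of only these groups. In mutant rescue against knockdown, 4 members were called, and 1 with no filter, 2 with a constant prior variance and 0 (6 at an unadjusted p under 0.05, by limma) in the fit of only these groups, where 1 other complement gene was called instead of 3. In rescue against mutant rescue, 4 members and 9 other genes were called, and 1 and 2 in the fit of only these groups and 5 other genes with no filter. The number of all genes called moved too. In the fit of only the groups compared it went from 553 to 1246 in rescue against knockdown. It went from 1473 to 279 in mutant rescue against knockdown and from 1370 to 192 in rescue against mutant rescue.

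Leaving out 1 library gave 0 to 3 members called in rescue against knockdown, 0 to 3 in mutant rescue against knockdown and 1 to 4 in rescue against mutant rescue. For the other complement genes it gave 2 to 6, 0 to 3 and 2 to 8 in these 3 comparisons, and 1 to 5 in knockdown against control, which was known when the genes were chosen and is not read as a result. Fits with 0 had 3 to 7 at an unadjusted p under 0.05.

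Log2 differences that changed sign were all small and not called. Leaving out 1 library gave ranges of -0.12 to 0.17 for C3AR1 and -0.238 to 0.0558 for CFP in mutant rescue against knockdown. They were -0.12 to 0.29 for CFD, -0.235 to 0.0303 for CD55 and -0.0566 to 0.0742 for CD59 in rescue against knockdown, and -0.218 to 0.0758 for CFP, -0.237 to 0.0686 for CD46 and -0.0781 to 0.187 for CD55 in rescue against mutant rescue. Centring turned C3AR1 to -0.0224 in mutant rescue against knockdown and CD59 to -0.0114 in rescue against knockdown. It moved the median of all genes by at most 0.05. The cause of these changes was not tested. The correlation of replicate differences between groups, -0.02 to 0.41, does not show that the numbers pair the libraries. The replicate block left the number of members called at 4 in mutant rescue against knockdown and 4 in rescue against mutant rescue.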
